A study of Mus musculus with 12 samples.

Results

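Open chromatin was compared between FoxA2-middle and FoxA2-negative cells of mouse embryos that carried a mutant FoxA2 lacking an alpha helix. The comparison rested on 4 of the 12 samples of the study, 2 of helix mutant Middle cells and 2 of helix mutant Negative cells. For each group the 2 samples had been pooled, as the names of the peaks say, and 1 list was deposited. The replicate numbers of the dHx Middle samples differ between 2 of their labels, and the list does not show which samples entered it. The members were the autosomal peaks of those lists, 37611 in the helix mutant Middle list and 48244 in the helix mutant Negative list, or 85855 of the 249098 autosomal peaks in all 6 lists. A peak was called shared when a peak of the other list overlapped it by at least 1 bp, and Middle-only or Negative-only when none did. With 1 list per group there were no replicate values, so no difference was tested and no p-value was computed. The intervals given are exact Clopper-Pearson 95% intervals, and they cover counting error only.

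All embryos were at embryonic day 7.5 and homozygous for a knock-in FoxA2 allele, in which a flexible linker and the red fluorescent protein tagRFP followed the FoxA2 coding sequence. In the dHx allele (FoxA2-deltaHx-tagRFP) 10 residues of an alpha helix of FoxA2 were missing, and in the WT allele (FoxA2-WT-tagRFP) FoxA2 was otherwise intact. The mice were on a mixed C57Bl6/J x CD-1 background, and the embryos were not sexed. The part of the embryo outside the embryo proper was cut away, and about 10 homozygous embryos were pooled for a sort. Middle cells had tagRFP signal above the autofluorescence of wild-type embryos and up to the maximum of heterozygous cells, and Negative cells lay below that gate. High cells, used here only to look peaks up, exceeded the heterozygous cells. A gate thus pools every cell type with a given tagRFP level. ATAC-seq reads accessible DNA through the adapters that a transposase leaves in it, and it was run on 2000 to 5000 cells per library.

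FoxA2, a forkhead protein, is made in the anterior primitive streak, the definitive and visceral endoderm, the node and the notochord. It is known as a pioneer factor, a protein that binds its sites in closed chromatin and after which other factors can bind. A conserved alpha helix of FoxA proteins has been described to contact core histones. At this stage the FoxA2-negative cells of the embryo include mesoderm, neuroectoderm and the precursors of blood and vessels.

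The lists differed in depth as far as their scores show it. The background fitted to the authors' scores, in mean pileup per base, was 0.786 (range 0.745 to 0.827) in dHx Middle and 1.57 (1.49 to 1.64) in dHx Negative. A peak needed at least 5.09-fold of this background to enter the dHx Middle list, against 3.82-fold in dHx Negative. The ranges of the background come from fits with the lowest pileup of a peak set a step lower or higher. They do not measure sampling error. The lists covered 20.8 Mb in dHx Middle and 26.7 Mb in dHx Negative, with median peak widths of 450 bp and 422 bp. Read totals of the samples are not known here. Depth and FoxA2 level cannot be told apart in any count over whole lists.

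RefSeq promoter windows run from 250 bases before to 50 bases after a gene's start, and 31396 of them lay on autosomes. Middle-only peaks alone covered 889 windows (2.83%), Negative-only peaks alone covered 1974 (6.29%) and shared peaks covered 10529 (33.5%). Over all 25748 genes with a window, 798 had a Middle-only and 1784 a Negative-only promoter. Of the 25 definitive endoderm genes with a window 4 had a Middle-only and 2 a Negative-only promoter, and of the 15 visceral endoderm genes 5 and 2. Adhesion (20 genes) and node (15 genes) had 2 and 2 each. Lateral and cardiac mesoderm (20 genes) had 1 and 6, primitive streak (20 genes) 0 and 4, blood and endothelium (17 genes) 1 and 3, and epiblast and neuroectoderm (24 genes) 3 and 6, with Pax2 on both sides. Trophoblast (14 genes) had 0 and 2 and ubiquitous genes (16 genes) 0 and 3. Against the lean of their lists, Mef2c (cardiac mesoderm), Ikzf1 (blood) and Epha2 (epiblast) had Middle-only promoters, and Pdx1, Trh, Lrp2 and Pla2g12b (endoderm) had Negative-only ones. The stretches printed were chosen with their values known and do not stand for their lists. Hnf4a, a nuclear receptor of the endoderm and liver, had Middle-only peaks over both of its printed windows. They scored 8.67 and 6.40, and both were in none of the other 4 lists. Fgb encodes the fibrinogen beta chain and Cubn the visceral endoderm receptor cubilin, and their Middle-only promoter peaks were also in the WT Middle list and in none of the other 3. Krt18 encodes a keratin of simple epithelia, and its promoter peak was also in dHx High and WT High. The bases of these windows that lie before the gene start and under the Middle-only peak follow, from RefSeq on GRCm38.p6 (the assembly of mm10), 5′ to 3′ on the strand of the gene. Capitals mark matches to the motifs searched, on either strand.
Hnf4a (chr2:163506623-163506856, plus strand): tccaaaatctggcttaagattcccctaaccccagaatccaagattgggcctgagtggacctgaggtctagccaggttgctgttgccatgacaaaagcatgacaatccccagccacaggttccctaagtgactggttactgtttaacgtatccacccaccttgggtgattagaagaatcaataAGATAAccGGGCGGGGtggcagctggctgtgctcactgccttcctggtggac
Hnf4a (chr2:163547028-163547154, plus strand): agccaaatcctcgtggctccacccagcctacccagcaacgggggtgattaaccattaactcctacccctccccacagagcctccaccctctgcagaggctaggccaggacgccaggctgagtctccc
Fgb (chr3:83049864-83050113, minus strand): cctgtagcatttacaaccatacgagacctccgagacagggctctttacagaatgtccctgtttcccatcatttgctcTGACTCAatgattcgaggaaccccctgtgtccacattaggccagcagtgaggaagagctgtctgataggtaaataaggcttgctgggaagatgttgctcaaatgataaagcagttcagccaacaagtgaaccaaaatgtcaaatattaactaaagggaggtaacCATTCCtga
Cubn (chr2:13491877-13492126, minus strand): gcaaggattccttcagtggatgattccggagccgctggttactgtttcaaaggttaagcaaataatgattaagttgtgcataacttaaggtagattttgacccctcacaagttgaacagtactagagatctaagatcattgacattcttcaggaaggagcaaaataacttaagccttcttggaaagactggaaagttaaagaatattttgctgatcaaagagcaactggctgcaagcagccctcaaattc
Krt18 (chr15:102028028-102028215, plus strand): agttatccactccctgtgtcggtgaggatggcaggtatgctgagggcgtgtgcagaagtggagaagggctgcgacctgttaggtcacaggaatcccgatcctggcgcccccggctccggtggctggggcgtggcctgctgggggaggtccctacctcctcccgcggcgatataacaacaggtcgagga
No capitals mark a forkhead motif in these stretches. In the first Hnf4a stretch AGATAA, the GATA motif, lay beside a KLF motif, and the Fgb stretch held an AP-1 and a TEAD motif.

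On the Negative side the promoters covered by Negative-only peaks alone included those of Hand2 and Bmp4 (lateral mesoderm), Gata2, Runx1 and Tek (blood and endothelium), Sox1, Zic1 and Pax6 (neuroectoderm) and the pluripotency factor Nanog. Their peaks scored 2.24 at Sox1, the lowest score of the dHx Negative list, 2.97 at Hand2, 3.74 at Pax6 and 4.55 at Bmp4. At Tek, Runx1, Nanog, Zic1 and Gata2 the scores were 6.30, 9.17, 10.2, 11.2 and 12.3. The Zic1 peak was also in the WT Negative list and in no other. The Nanog peak was also in dHx High, WT Negative and WT High. The Gata2, Runx1 and Bmp4 promoter peaks were in all of the other 4 lists, so dHx Middle was the exception there. In contrast, the Hand2 and Tek peaks were in none of the 4. The 4 stretches below were chosen with their values known, 1 for each of these kinds of cell.
Hand2 (chr8:57320890-57320982, plus strand): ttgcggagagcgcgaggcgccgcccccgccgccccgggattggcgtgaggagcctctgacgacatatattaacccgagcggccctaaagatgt
Zic1 (chr9:91365818-91366018, minus strand): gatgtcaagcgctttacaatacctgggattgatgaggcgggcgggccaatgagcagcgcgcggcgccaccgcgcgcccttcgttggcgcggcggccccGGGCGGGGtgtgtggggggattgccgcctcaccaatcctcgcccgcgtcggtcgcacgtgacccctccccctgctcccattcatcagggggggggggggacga
Gata2 (chr6:88198414-88198663, plus strand): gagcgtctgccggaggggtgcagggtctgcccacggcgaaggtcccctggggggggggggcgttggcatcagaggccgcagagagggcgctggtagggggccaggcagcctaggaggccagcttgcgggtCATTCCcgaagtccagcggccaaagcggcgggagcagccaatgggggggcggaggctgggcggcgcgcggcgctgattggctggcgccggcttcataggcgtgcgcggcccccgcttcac
Nanog (chr6:122707239-122707488, plus strand): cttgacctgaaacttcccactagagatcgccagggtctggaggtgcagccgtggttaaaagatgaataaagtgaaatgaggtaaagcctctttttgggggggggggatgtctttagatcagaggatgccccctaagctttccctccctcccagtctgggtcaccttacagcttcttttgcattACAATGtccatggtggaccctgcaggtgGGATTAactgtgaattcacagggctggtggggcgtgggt
Gata2 held a TEAD motif, Zic1 a KLF motif, and Nanog a SOX and a homeobox motif.

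Over all promoter windows, 14 motifs were searched on both strands. The forkhead motif TGTTTAC, or the second form of it that was searched, TGTTTGC, was in 10.7% (8.73 to 12.9) of the Middle-only windows, 6.94% (5.86 to 8.15) of the Negative-only windows, 5.46% of the shared windows, 10.4% of the windows without a peak and 8.55% of all windows. The Middle-only share was thus close to that of windows without a peak. The motif AGATAA of GATA factors stood in 11.4% of Middle-only windows, 7.09% of Negative-only windows, 15.2% of windows without a peak and 11.2% of all windows. For SOX (ACAAAG) the shares were 20.1% of Middle-only, 14.7% of Negative-only, 22.7% of no-peak and 18.6% of all windows. For the E-box CATCTG they were 11.4% of Middle-only, 15.6% of Negative-only, 21.7% of no-peak and 17.2% of all windows. In shared windows AGATAA stood at 4.95%, ACAAAG at 12.2% and CATCTG at 10.3%. The GC-rich KLF motif CCCCGCCC was in 24.6% of Middle-only, 23.6% of Negative-only, 37.0% of shared, 5.55% of no-peak and 17.8% of all windows. The median GC content was 58.3% in both Middle-only and Negative-only windows, against 62.7% in shared windows and 47.7% in windows without a peak. The other motifs were ACAATG for SOX factors, TAATTA for homeobox factors along with the bicoid type TAATCC, AGGTGTGA for T-box factors, GGAATG for TEAD factors, TGANTCA for AP-1, the further E-box CATATG, and ATGCAAAT for POU factors. They were in 0.79% to 15.1% of Middle-only windows and 0.86% to 14.2% of Negative-only windows. A match is a run of letters and not a measured binding site.

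Over the whole lists, 14642 of 37611 dHx Middle peaks were Middle-only, or 38.9% (38.4 to 39.4). Of the dHx Negative peaks, 25259 of 48244 were Negative-only, or 52.4% (51.9 to 52.8). The Negative side therefore had the larger share and also the higher background. Both lists cut to an equal minimum fold over background kept all 37611 Middle peaks and 33569 Negative peaks, and the order then turned round, with 46.8% Middle-only and 41.1% Negative-only. With the 20000 strongest peaks of a list set against all peaks of the other, 5187 Middle peaks (25.9%, 25.3 to 26.5) and 5463 Negative peaks (27.3%, 26.7 to 27.9) were called in 1 list only. For the top 10000 the order turned round, with 15.6% (14.9 to 16.3) Middle-only and 14.9% (14.2 to 15.6) Negative-only, but these intervals overlap. In WT embryos the same contrast gave 21284 of 44539 Middle-only peaks (47.8%) and 15299 of 38439 Negative-only peaks (39.8%). WT Middle had a fitted background of 1.49 and WT Negative of 1.08, so in both genotypes the list with the higher background had the larger share.

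**Figure D1:**
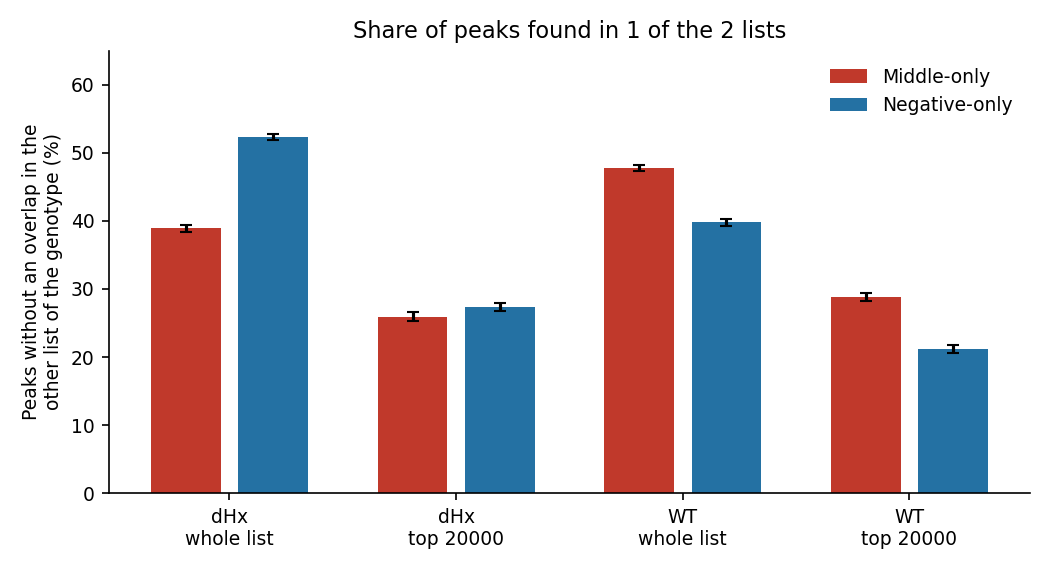
Share of autosomal peaks (%, vertical axis) without an overlapping peak in the other list of the same genotype, for Middle-only (red) and Negative-only (blue) peaks, with 95% Clopper-Pearson bars. In dHx the Negative-only bar was the higher one over whole lists (38.9% Middle-only, 52.4% Negative-only) and in the top 20000 (25.9% Middle-only, 27.3% Negative-only). That order turned round at an equal minimum fold and, with overlapping intervals, in the top 10000. In WT the Middle-only bar was the higher one in both settings.

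Differing peaks were weaker and narrower than shared ones by their medians. With each list split by score into 10 bins of equal size, the Middle-only share was 62.8% in the lowest bin and 6.97% in the highest, and it was lower at each step. In dHx Negative the share was 82.1% in the lowest bin and 8.58% in the highest. Middle-only peaks had a median score of 4.31 and a median width of 346 bp, against 8.67 and 550 bp for the shared peaks of the Middle list. Negative-only peaks had a median score of 4.55 and a width of 335 bp. Fewer of them lay at gene starts: 5.20% of Middle-only and 6.74% of Negative-only peaks overlapped a promoter window, compared with 33.9% of the shared Middle peaks and 34.1% of the shared Negative peaks. Of the Middle-only peaks 53.1% overlapped a gene body and of the Negative-only peaks 48.0%.

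**Figure D2:**
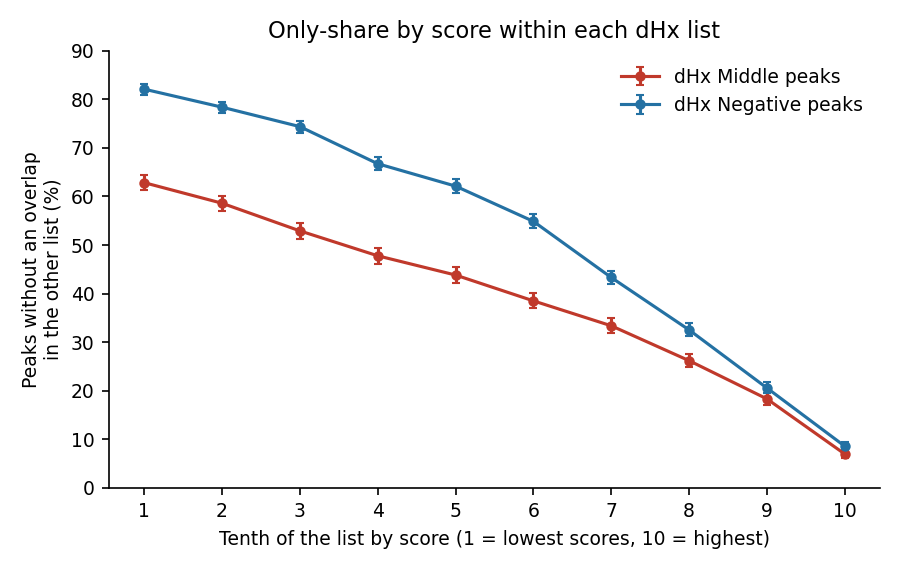
Share of peaks without an overlap in the other dHx list (%, vertical axis) for 10 bins of equal size by score (horizontal axis, lowest scores at 1), with 95% Clopper-Pearson bars. The Middle line (red) ran between 62.8% and 6.97% and lay below the Negative line (blue) in all 10 bins.

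The top 20000 was an arbitrary edge. It fell at a score of 6.40 in dHx Middle, which 2791 peaks shared, 1479 of them inside, and at 8.19 in dHx Negative, which 2137 peaks shared, 1256 of them inside. The numbers in the peak names were not consecutive, and no source used here describes what removed the skipped ones. Of the Middle-only peaks 21.1% lay between neighbouring dHx Negative peaks with a skipped number, against 9.16% of the shared Middle peaks. Of the Negative-only peaks 26.3% lay so in the dHx Middle list, against 10.6% of the shared Negative peaks. What the skipped entries were was not tested.

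The other 4 lists had no part in splitting the peaks and were used to look them up. Of the 5187 Middle-only peaks in the top 20000, 71.0% (69.7 to 72.2) were also in WT Middle, 58.5% in WT High, 50.3% in dHx High and 16.5% (15.5 to 17.5) in WT Negative. In none of the 4 were 11.6%. Of the 5463 Negative-only peaks in the top 20000, 61.5% (60.2 to 62.8) were in WT Negative, 47.0% in WT Middle, 44.6% in WT High and 33.2% in dHx High, and 17.4% were in none. Shared peaks in the top 20000 of either list were found in each of the other lists at 85.1% to 93.3%. Over whole lists the shares of shared peaks were 75.2% to 83.4%.

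**Figure D3:**
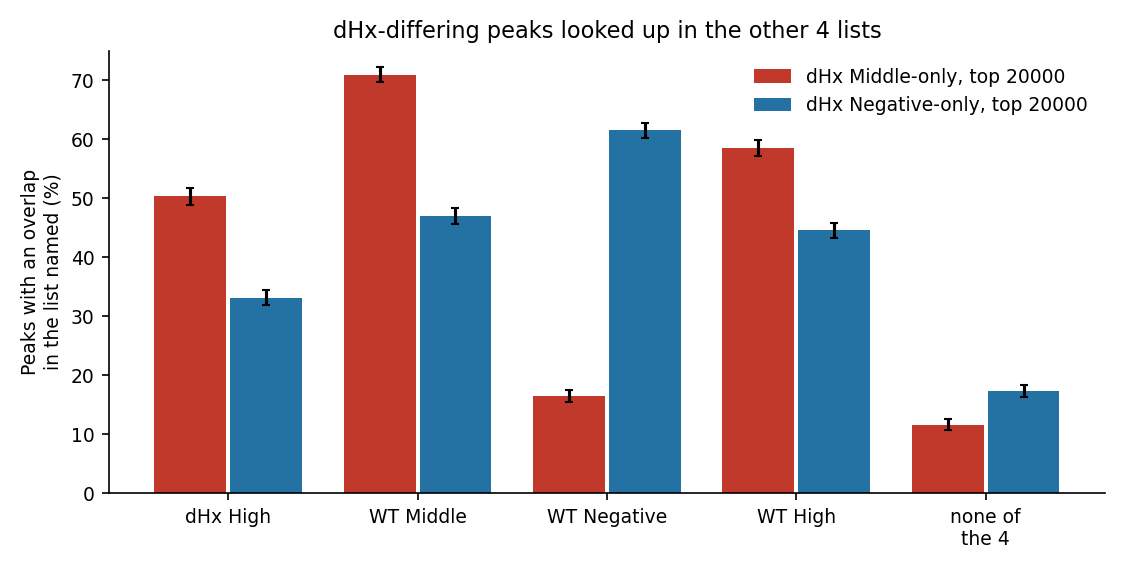
Share of the Middle-only (red, n = 5187) and Negative-only (blue, n = 5463) peaks in the top 20000 that overlapped a peak of dHx High, WT Middle, WT Negative or WT High, or of none of these (%, vertical axis), with 95% Clopper-Pearson bars. Middle-only bars were higher for dHx High, WT Middle and WT High, and the Negative-only bar was higher for WT Negative (16.5% of Middle-only and 61.5% of Negative-only peaks).

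The WT lists split these peaks further. Of the Middle-only peaks in the top 20000, 57.9% were in WT Middle and not in WT Negative and 3.37% in WT Negative and not in WT Middle. Of the Negative-only peaks 28.1% were in WT Negative and not in WT Middle, 13.6% were in WT Middle and not in WT Negative, and 33.4% were in both WT lists. Over whole lists 5498 of the 14642 Middle-only peaks (37.5%) overlapped a WT Middle-only peak and 5.27% a WT Negative-only peak. Of the 25259 Negative-only peaks 20.2% overlapped a WT Negative-only peak and 12.4% a WT Middle-only peak. Seen from WT, 25.9% of the WT Middle-only peaks were Middle-only in dHx, and 33.3% of the WT Negative-only peaks were Negative-only in dHx. WT Middle was the deepest of the WT lists by its fitted background, and the part of depth in these shares was not tested.

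In sorted bulk cells, fewer cells with a region open and less opening per cell cannot be told apart. Gene lists were read by giving each peak to the closest protein-coding gene body, up to 100 kb away. Of the assigned peaks 37.8% of the Middle peaks were Middle-only and 50.8% of the Negative peaks were Negative-only. Among the assigned peaks that differed, 37.0% were Middle-only, 49.0% in the top 20000 and 56.6% at an equal minimum fold. These shares are the background for each list. Over 16176 genes with a peak in either list, 23.0% had more Middle-only than Negative-only peaks and 41.4% had the reverse, and the median net number (Middle-only minus Negative-only) over all genes was 0. The lists were chosen with earlier results of these data known, so their direction is a description.

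Endoderm loci lay on the Middle side. Of the 33 definitive endoderm genes 22 had more Middle-only peaks, 7 more Negative-only peaks and 4 equal numbers, with a median net of 1. Middle-only peaks made up 107 of the 161 differing peaks (66.5%, 58.6 to 73.7), 86.5% in the top 20000 and 84.9% at an equal minimum fold. All 7 Middle peaks assigned to Hnf4a were Middle-only, with scores of 6.40 to 21.8, and no Negative peak was assigned to it. With peaks nearer to another gene also counted, dHx Middle had 17 and dHx Negative 16 within 100 kb of Hnf4a. The net number of Middle-only minus Negative-only peaks was then 1. Cdh1, the epithelial cadherin, had 7 Middle-only of 10 Middle peaks and no Negative-only peak among 3. Dkk1, a secreted Wnt inhibitor, had 7 of 10 and 1 of 4, and Foxa1, the close relative of FoxA2, had 6 of 6 and 2 of 2. Hhex, a homeobox gene of the anterior endoderm, had 4 of 5 and 0 of 1, and Ovol2 and Sfrp5 had 3 of 3 each with no Negative peak. With peaks assigned only within 20 kb, the net number was 7 for Hnf4a and for Cdh1, 4 for Hhex and 2 for Dkk1.

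Single peaks show how these loci looked in the other lists. The strongest Hnf4a peak (chr2:163555105-163555768, inside the gene) scored 21.8 and was in WT Middle and WT High but in neither Negative list. Of the 7 Hnf4a Middle-only peaks 5 were in WT Middle and 0 in WT Negative. For Cdh1 the strongest one, chr8:106603124-106604059, overlapped the end of the gene with the lower coordinate and scored 17.6. It was in all of the other 4 lists, so that among the 6 lists only dHx Negative lacked it. Sox17, an endoderm HMG factor, was close to even with 4 Middle-only of 8 Middle peaks and 3 Negative-only of 6 Negative peaks.

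A few definitive endoderm genes went the other way. Pdx1, a factor of the later pancreas and foregut, had no Middle peak and 4 Negative-only peaks. Nkx2-1, of the later lung and thyroid, had 1 Middle-only of 2 Middle peaks and 5 Negative-only of 6 Negative peaks. Gsc, a homeobox gene of the organizer, had 1 of 3 and 5 of 7, and Eomes, the T-box factor upstream of both endoderm and mesoderm, had 3 of 9 and 5 of 12. Both numbers at Gsc were the same in WT, 1 of 3 and 5 of 7. The Pdx1 promoter peak scored 19.1 and was also in dHx High, WT Middle and WT Negative.

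Visceral endoderm, the extraembryonic layer that surrounds the epiblast and also expresses FoxA2, shared 6 genes with the definitive endoderm list. Of its 23 genes 15 had more Middle-only peaks, 4 more Negative-only peaks and 4 equal numbers, 1 of them without a peak. Middle-only peaks were 63 of the 87 differing peaks (72.4%, 61.8 to 81.5). Without the 6 shared genes they were 30 of 45 (66.7%, 51.0 to 80.0). Spink1, a secreted protease inhibitor, had 5 Middle-only peaks and no Negative peak. Ttr, which encodes transthyretin, and Apob, which encodes an apolipoprotein, each had 4 Middle-only of 5 Middle peaks and no Negative-only peak among 1. With peaks assigned only within 20 kb, the net number was 5 for Spink1 and 1 for Apob. Afp, the marker alpha-fetoprotein, had 1 Middle-only and 1 Negative-only peak, and Apoe had none of either kind among 3 Middle and 5 Negative peaks. Cubn had its Middle-only promoter peak, but over the gene 3 Middle-only of 4 Middle peaks and 6 Negative-only of 7 Negative peaks. In these lists definitive and visceral endoderm in the Middle gate cannot be told apart.

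Cell adhesion genes of epithelia were on the Middle side by peaks more than by genes. Of the 30 genes 14 had more Middle-only peaks, 10 more Negative-only peaks and 6 equal numbers, and the median net was 0. Middle-only peaks were 54 of 89 differing peaks (60.7%, 49.7 to 70.9), 85.7% in the top 20000 and 83.1% at an equal minimum fold. Grhl2, a transcription factor of epithelial genes, had 7 Middle-only of 12 Middle peaks and 3 Negative-only of 8 Negative peaks. Epcam, an epithelial surface protein, had 4 of 7 and 1 of 4, and Ocln, the tight junction protein occludin, had 3 of 5 and 0 of 2. Krt18 had 3 of 7 and 0 of 4. The Epcam peaks included a close pair, 68.4 and 67.6 kb outside the gene. They were a Middle-only peak at chr17:87567230-87567538 with a score of 12.3 and a Negative-only peak at chr17:87567995-87568378 with a score of 14.5. With peaks assigned only within 20 kb, the net number was 0 for Grhl2 and for Epcam and 3 for Krt18. Llgl2, a polarity gene, had no Middle-only peak among 3 and 2 Negative-only among 5. Without the 6 genes shared with the definitive endoderm list, 38 of 70 differing peaks (54.3%) were Middle-only.

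Node and notochord genes were split. Of the 26 genes 11 had more Middle-only and 12 more Negative-only peaks, and Middle-only peaks were 44 of 95 differing peaks (46.3%, 36.0 to 56.8, an interval that holds the 37.0% over all genes). In the top 20000 the share was 62.1% (42.3 to 79.3) against 49.0% over all genes. Lefty1, a Nodal inhibitor, had 3 Middle-only peaks and no Negative peak. Foxj1, the factor of motile cilia, had 2 of 3 and 0 of 1, and Shh, the signal of the notochord, had 3 of 4 and 1 of 2. The strongest Middle-only peak of Shh lay 96.0 kb outside the gene, at chr5:28563067-28563709. It had a score of 9.86 and overlaps in dHx High, WT Middle and WT High. With peaks assigned only within 20 kb, the net number was 0 for Shh, 3 for Lefty1 and 2 for Foxj1. Ptch1, the receptor of Shh, had 2 Middle-only of 7 Middle peaks and 5 Negative-only of 10 Negative peaks. Sox9 had 4 of 6 and 10 of 12. T, the brachyury gene of streak and notochord, had no Middle peak and 1 Negative-only peak, and Noto had 2 of 3 and 1 of 2.

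Mesoderm loci lay on the Negative side. Of the 30 lateral and cardiac mesoderm genes 1 had more Middle-only peaks, 24 more Negative-only peaks and 5 equal numbers, with a median net of -2. Middle-only peaks were 30 of 137 differing peaks (21.9%, 15.3 to 29.8), 24.4% in the top 20000 and 42.3% at an equal minimum fold, below the share over all genes in each setting. Meis2, a homeobox factor, had 4 Middle-only of 11 Middle peaks and 14 Negative-only of 21 Negative peaks. The strongest Meis2 Negative-only peak, chr2:115859206-115861027, was 1822 bp wide, lay 0.24 kb outside the gene, scored 42.9 and was in all of the other 4 lists. Msx1, a BMP target, had 1 of 6 and 8 of 13, Wt1 had 0 of 2 and 7 of 9, and Hand2, a factor of heart and limb, had 0 of 1 and 6 of 7. Foxf2, Pitx1, Tbx5 and Prrx2 had no Middle peak, with 4, 3, 3 and 2 Negative-only peaks.

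Among the 27 autosomal genes of the primitive streak and nascent mesoderm 4 had more Middle-only peaks, 15 more Negative-only peaks and 8 equal numbers, and the median net was -1. Middle-only peaks were 27 of 95 differing peaks (28.4%, 19.6 to 38.6, which holds the 37.0% over all genes). Axin2, a target and inhibitor of Wnt signalling, had 2 Middle-only of 5 Middle peaks and 13 Negative-only of 17 Negative peaks. Zeb2, a repressor of Cdh1, had 1 of 4 and 11 of 14. In WT Zeb2 had 3 of 7 and 4 of 8, and Axin2 4 of 13 and 3 of 10. Evx1 had 0 of 3 and 5 of 8. Fgf8 and Nodal, signals of the streak, each had 3 of 4 and 1 of 2. In the top 20000 the Middle-only share was 48.0% (27.8 to 68.7), against 49.0% over all genes.

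For blood and endothelium, of the 25 autosomal genes 3 had more Middle-only peaks, 18 more Negative-only peaks and 4 equal numbers, with Middle-only peaks at 19 of 74 differing peaks (25.7%, 16.2 to 37.2, an interval that holds the 37.0% over all genes) and 25.9% (11.1 to 46.3) in the top 20000, against 49.0% over all genes. Flt1, a VEGF receptor, had 2 Middle-only of 9 Middle peaks and 8 Negative-only of 15 Negative peaks. Runx1, which is needed for blood stem cells, had 4 of 7 and 9 of 12, and Cdh5, the endothelial cadherin, had 2 of 3 and 7 of 8. Spi1, Sox18, Tie1 and Etv2 had no Middle peak, and 4, 1, 1 and 1 Negative-only peaks. Hhex and Sox7, on the Middle side with 4 of 5 and 2 of 2, are also known from endoderm.

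The epiblast and neuroectoderm list changed place with the setting. Of its 29 autosomal genes 5 had more Middle-only peaks, 20 more Negative-only peaks and 4 equal numbers, and Middle-only peaks were 33 of 105 differing peaks (31.4%, 22.7 to 41.2, which holds the 37.0%). In the top 20000 they were 57.1% (34.0 to 78.2), above the 49.0% over all genes. Nanog had 0 of 1 and 6 of 7, Pax6 had 1 of 5 and 5 of 9, and Sox1, En2 and Lhx5 had no Middle peak and 3, 3 and 2 Negative-only peaks. The strongest Nanog peak, chr6:122715718-122716323 at 1.08 kb outside the gene, scored 34.6 and was in all of the other 4 lists. Otx2, a head factor that stands in both the endoderm and the neuroectoderm list, had 4 Middle-only of 4 Middle peaks and 6 Negative-only of 6 Negative peaks, so no peak at Otx2 was shared.

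Genes of the extraembryonic ectoderm and trophoblast, a tissue removed at dissection, had peaks in both lists. Of 19 genes 6 had more Middle-only peaks and 12 more Negative-only peaks, and Middle-only peaks were 27 of 86 differing peaks (31.4%, 21.8 to 42.3, which holds the 37.0%). Tfap2c and Gata3 each had no Middle-only and 7 Negative-only peaks, of 10 and 11 Negative peaks. Esrrb had 4 of 5 and 1 of 2, and Elf5, a defining trophoblast factor, had no Middle peak and 1 Negative-only peak. Ubiquitously expressed genes had the lowest shares of differing peaks among the 10 lists. Of 23 autosomal ones 3 had more Middle-only peaks, 8 more Negative-only peaks and 12 equal numbers, and 13 of 51 Middle peaks (25.5%) and 17 of 58 Negative peaks (29.3%) were in 1 list only.

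**Figure D4:**
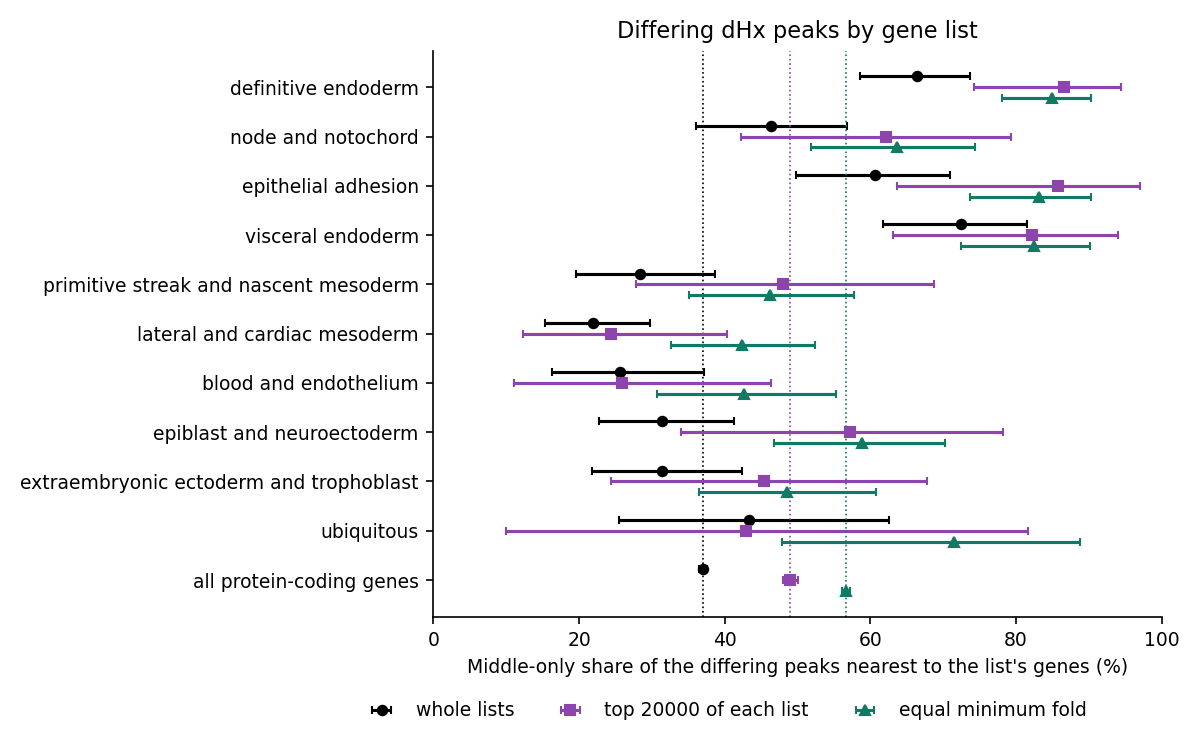
Middle-only share of the differing peaks nearest to the genes of each list (%, horizontal axis) with 95% Clopper-Pearson bars, for whole lists (circles), the top 20000 (squares) and an equal minimum fold over background (triangles), with dotted lines at the share over all protein-coding genes. Endoderm, visceral endoderm and adhesion genes lay right of the dotted line in each setting (66.5%, 72.4% and 60.7% over whole lists), and lateral and cardiac mesoderm left of it (21.9%).

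In WT the same lists gave, for Middle-only peaks among those that differed, 70.8% for definitive endoderm, 88.3% for visceral endoderm, 74.4% for adhesion, 41.4% for node and notochord, 45.7% for primitive streak, 33.6% for lateral and cardiac mesoderm, 52.9% for blood and endothelium and 31.0% for neuroectoderm. The share over all genes was 58.6% in WT. Definitive and visceral endoderm and adhesion were thus above it in WT as in dHx, and lateral and cardiac mesoderm was below it. The dHx interval of the primitive streak list held the share over all genes. Node and notochord was below it in WT, and its dHx interval held the share over all genes. Of 62 genes named from the lists 40 had the same sign of the net number in WT, 12 the opposite sign and 10 a net of 0.

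At Foxa2 itself the mutant Middle cells had more peaks than the mutant Negative cells. Within 100 kb the dHx Middle list held 20 peaks and the dHx Negative list 15, against 19 in WT Middle and 11 in WT Negative. In dHx 12 of the Middle peaks were Middle-only and 7 of the Negative peaks were Negative-only, and in the top 20000 9 of 17 Middle peaks and 0 of 3 Negative peaks were. The strongest Middle-only peak, chr2:148065706-148066327 at 18.7 kb outside the gene, scored 26.2. That region scored 35.3 in WT Middle and 3.70 in dHx High, and no peak was listed there in dHx Negative, WT Negative or WT High. A second region, chr2:148001452-148002156 at 40.7 kb, scored 24.7 in dHx Middle, 6.02 in dHx High, 38.0 in WT Middle, 5.09 in WT Negative and 3.97 in WT High, and dHx Negative alone had no peak there. The 7 Negative-only peaks were weak, with scores of 2.24 to 4.55, and 1 of them was in WT Middle and 0 in WT Negative.

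The Negative list was not closed at Foxa2. The region that overlaps the end of the gene body with the higher coordinate (chr2:148045181-148047200) scored 27.7 in dHx Middle, 14.5 in dHx Negative and 42.2 in dHx High, and it was in all 6 lists. Scores depend on depth and rank peaks only within a list. A region 73.7 kb outside the gene (chr2:147968035-147969177) scored 75.1 in dHx Middle and 15.6 in dHx Negative and was also in all 6.

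**Figure D5:**
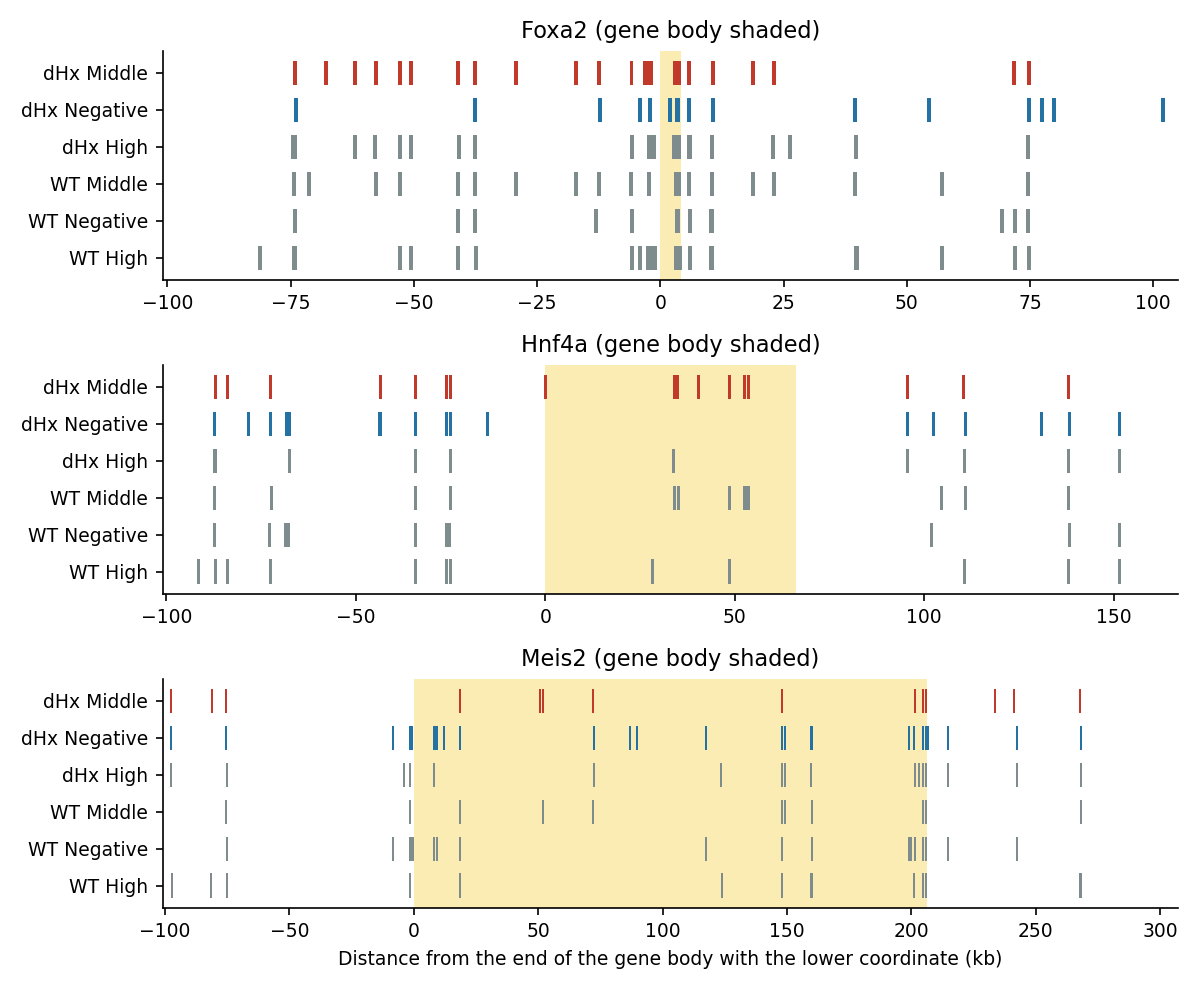
Positions of peaks (bars, drawn at least 0.8 kb wide) within 100 kb of Foxa2, Hnf4a and Meis2 in the 6 lists (rows), by distance in kb from the end of the gene body with the lower coordinate; the gene body is shaded, dHx Middle is red and dHx Negative blue. Foxa2 had 20 dHx Middle and 15 dHx Negative peaks, Hnf4a 17 and 16, and Meis2 14 and 23, counting peaks that lie nearer to another gene.

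Genome-wide, the genes with the largest net number on the Middle side included Rassf3 (12 Middle-only of 19 Middle peaks, 1 Negative-only of 8 Negative peaks), Prkce (12 of 14, 2 of 4), Ehf (11 of 12, 1 of 2), Pdss2 (8 of 12, 0 of 4), Dlg5 (9 of 12, 1 of 4), Spin1 (8 of 9, 0 of 1), Hes1 (11 of 15, 3 of 8), Sgms1 (9 of 14, 1 of 6) and Jade1 (9 of 14, 1 of 6). Ehf is an ETS factor of epithelia, Dlg5 a scaffold of cell polarity, Prkce a protein kinase C and Hes1 a target of Notch. At Ehf 7 of the 11 Middle-only peaks were in WT Middle, 7 in dHx High and 1 in WT Negative. The net number of each of these genes was also positive in WT.

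On the Negative side the 10 genes with the most negative net numbers were multi-copy genes and are uncertain, since reads from near-identical copies may be split. They were Gm3050, Gm21154, Gm10377, Gm4724 and Gm3488, and Mup-ps12, Mup13, Mup12, Mup10 and Mup1 of the major urinary protein cluster. Gm3050 had 1 Middle-only of 18 Middle peaks and 48 Negative-only of 65 Negative peaks, and in WT 21 of 31 and 12 of 23. All 10 lay in the 25 densest 1-Mb bins, the top 1%, which held 3.45% of the Middle-only and 12.0% of the Negative-only peaks. Within those bins 19.7% of the Middle peaks and 60.9% of the Negative peaks were in 1 list only. Outside them, a look added after seeing the data, the 10 genes with the most negative net numbers included Alkbh5, with 0 Middle-only of 10 Middle peaks and 23 Negative-only of 33 Negative peaks, and Llgl1, with 1 of 6 and 22 of 28. Others were Gm2244, Gm7697, 9530057J20Rik, Fam205a4, Zfp993 and Nell1. Whether multi-copy loci remain among the 10 was not tested. In WT 8 of these 10 genes had a positive net number, Alkbh5 with 14 of 35 and 1 of 18. The other 2 were negative in WT too. They were Sdk2 and Gli2. Sdk2, a cell adhesion gene, had 1 of 6 and 17 of 22 in dHx, and 1 of 6 and 11 of 16 in WT. Gli2, a transcription factor of Hedgehog signalling, had 4 of 6 and 20 of 22 in dHx, and 4 of 8 and 7 of 11 in WT.

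The strongest differing peaks were mostly present in other lists. The highest Middle-only score was 125 at a peak inside Ttll5 (chr12:85867763-85868858), which was also in WT Middle, WT Negative and WT High. The highest Negative-only score was 1734 at a 238 bp peak inside Flt1 (chr5:147611434-147611671), also in WT Middle and WT Negative and in neither High list. It was narrow for its score, since the highest of the 10 score bins of dHx Negative had a median width of 831 bp. What gave so high a score in a narrow peak was not tested. Near Creb3l1 a Negative-only peak scored 663 and was also in dHx High, WT Middle and WT Negative.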

How the data were processed

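ATAC-seq was deposited as 6 peak lists on mm10, 1 per group of 2 samples, with each group's samples pooled by the authors, per the peak names. The submitters' processing notes name STAR 2.5.2a and MACS2, without their roles or settings. The score that the authors deposited with a peak was taken to be −log10 of a p or q value, and no source used here says which. It depends on depth and was used to rank peaks within a list.

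Lines with the same position were merged at their highest score, which removed 5017 lines in dHx Middle and 11493 in dHx Negative, and chromosomes X and Y were left out. A Poisson background was fitted to the 40 lowest score steps. Peaks were assigned to the nearest GRCm38.p6 RefSeq protein-coding gene within 100 kb. Python 3.11.15, numpy 2.4.6, pandas 2.3.3, scipy 1.17.1 and matplotlib 3.10.9 were used, and the overlap and assignment steps were tested on simulated data.

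The genes named were, per list, up to 4 on the Middle side and up to 3 on the Negative side with the largest net numbers, and 10 per side genome-wide, of which some are not reported here. Other genes and all promoter stretches were chosen after their values were seen, and the comparison and gene lists were chosen with earlier results of these data known. No genome was used, so motifs were searched in RefSeq promoter windows alone. Alternatives changed the overlap, the depth match, the rank limit and the gene assignment.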

Additional observations from a re-analysis of the deposited data

Results flagged for a closer look

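For 3 gene lists and the genes below the net number lay on opposite sides in the 2 genotypes. Each number is a difference, Middle minus Negative, and with 1 pooled list per group the difference between genotypes was not tested. WT Middle had a higher fitted background than WT Negative, and dHx Middle a lower one than dHx Negative, so depth and genotype cannot be told apart here.

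The same change of sign was present over all protein-coding genes, with genes on the Middle side minus genes on the Negative side at -2971 in dHx and 2031 in WT. The signs below that were negative in dHx and positive in WT are therefore not particular to those lists or genes. By that count blood and endothelium stood at -15 in dHx and 3 in WT. The extraembryonic ectoderm and trophoblast list stood at -6 in dHx and 1 in WT, and ubiquitously expressed genes at -5 in dHx and 4 in WT.

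By Middle-only minus Negative-only peaks, Runx1 had -5 in dHx and 6 in WT, and Axin2 had -11 in dHx and 1 in WT. The visceral endoderm receptor genes Cubn and Lrp2 had -3 and -2 in dHx, against 3 and 2 in WT. Gata6, a GATA factor of the endoderm, had -1 in dHx and 4 in WT. The polarity gene Llgl2 and the tight junction gene Tjp3 each had -2 in dHx, against 4 and 2 in WT.

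In the other direction, opposite to the change over all genes, Fgf8 had 2 in dHx and -2 in WT. The ciliary gene Cfap126 had 2 in dHx and -1 in WT. Zic2 had 1 in dHx and -1 in WT, and the chaperone gene Hsp90ab1 had 1 in dHx and -2 in WT.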

How the results depend on the processing

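No paired analysis was possible because each group was deposited as 1 pooled list, and for the same reason no replicate could be left out. Over whole lists, the Middle-only and Negative-only shares were 41.4% and 54.5% when an overlap of 50% of the shorter peak was required, 37.9% and 51.2% when peaks within 250 bp counted as shared, 40.3% and 51.4% without the densest bins, and 37.1% and 50.8% without the weaker 50% of each list. At equal list length they were 44.3% and 44.7%, and at an equal minimum fold 46.8% and 41.1%, where the order turned round. Of the top 20000 they were 26.9% and 28.4% at 50% overlap, 25.3% and 26.5% with chromosomes X and Y, and 27.5% and 29.2% without the densest bins. They were 15.6% and 14.9% for the top 10000, where the order also turned round but the intervals overlapped. When the other list was also limited to its top 20000, they were 43.4% and 43.5%. The overlap of dHx Middle-only with WT Middle-only peaks was 35.3% at 50% overlap and 33.0% in the top 20000, and that of Negative-only with WT Negative-only peaks 18.9% and 16.5%.

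The Middle-only share of differing peaks in the top 20000 was 86.5% for definitive endoderm, 62.1% for node, 85.7% for adhesion, 82.1% for visceral endoderm, 48.0% for streak, 57.1% for neuroectoderm, 45.5% for trophoblast and 49.0% for all genes. At an equal minimum fold, chosen for the gene lists after seeing the data, it was 84.9% for definitive endoderm, 63.6% for node, 83.1% for adhesion, 82.5% for visceral endoderm, 46.2% for streak, 42.3% for lateral mesoderm, 42.6% for blood, 58.9% for neuroectoderm, 48.6% for trophoblast, 71.4% for ubiquitous genes and 56.6% for all genes. With every gene within 100 kb, visceral endoderm had 59.6%, and within 20 kb all genes had 37.6%. The net number changed sign for Fgf5 (-2), Zic2 (-2) and Krt7 (-2) with every gene within 100 kb, and for Pax2 (1) in the top 20000. Of the other alternatives for single genes, 86 stayed within 1.5 times, 74 moved further with the same sign and 25 went to a net of 0. The cause was not tested.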

Other observations

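MicroRNA hairpins were looked up within 2 kb of peaks, with the examples chosen after their values were seen. Of 919 autosomal hairpins 198 lay near a dHx Middle peak and 217 near a dHx Negative peak. A Middle-only peak was near 58 hairpins and a Negative-only peak near 98. Over all peaks 38.9% of the Middle list were Middle-only and 52.4% of the Negative list Negative-only. The larger number on the Negative side is thus not particular to hairpins, and the examples below are all from that side. Mir10a and Mir10b, which lie in the Hox clusters on chromosomes 11 and 2, were each near a Negative-only peak, with scores of 4.55 and 3.74. The first of these was also in WT Negative and the second in none of the other 4 lists. Their 5p arms share a seed, in capitals here as bases 2 to 8 (RefSeq, GRCm38.p6).
mmu-miR-10a-5p: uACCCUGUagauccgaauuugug
mmu-miR-10b-5p: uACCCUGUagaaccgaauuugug
Mir200c and Mir141, known for keeping epithelial cells epithelial by repressing Zeb factors, shared 1 Negative-only peak at chr6:124718882-124719317. Its score was 7.23, and among the other 4 lists it was in WT Negative alone. Their 3p seeds differ at 1 base.
mmu-miR-200c-3p: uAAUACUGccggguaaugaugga
mmu-miR-141-3p: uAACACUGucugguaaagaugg
A peak near a hairpin is an open region and not a measured level of the microRNA.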
